A study of Prunus armeniaca and Prunus mume with 8 samples.

Results

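Lipoxygenases (LOX) and alcohol dehydrogenases (ADH) of fruit were followed through 6 probes of 10384 non-control probes on the array. The members were all probes whose description named a lipoxygenase, a hydroperoxide lyase, an alcohol dehydrogenase, an alcohol acyltransferase or another acyltransferase, with cinnamyl alcohol dehydrogenase left out. They comprised 4 LOX probes and 2 ADH probes, and 0 probes were described as a hydroperoxide lyase or an acyltransferase. Each probe stood for a separate GenBank entry and had 1 spot per array. The entries came from apricot (P. armeniaca, 3 entries), almond (P. dulcis, 2) and peach (P. persica, 1), and 0 came from P. mume. Descriptions existed for 658 probes, all of them in the authors' deposited lists of probes differing at least 2-fold in these samples, so an aroma gene outside those lists could not be counted.

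In plants, lipoxygenases add oxygen to linoleic and linolenic acid. The hydroperoxides formed are cleaved by hydroperoxide lyase to short aldehydes, the source of green and fruity notes, or passed by allene oxide synthase towards jasmonic acid. Alcohol dehydrogenases interconvert aldehydes and alcohols, and acyltransferases join those alcohols to acyl-CoA to give the esters of ripe fruit aroma. ADH also works in fermentation, after pyruvate decarboxylase.

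The arrays carried fruit RNA of Prunus mume (Japanese apricot), cultivars Ruantiaohongmei and Xiyeqing, and of Prunus armeniaca (apricot), cultivars Manao and Zhenkui, with no treatment. There were 2 arrays per cultivar, 8 in all, each of 1 colour (Cy3). Fruit was sampled at stages 1 to 8, between weeks 3 and 13 from full bloom, and the arrays are labelled as mixed stages. Neither the stages behind a given array nor the trees behind replicates are named in the labels, so the spread between replicates may be technical. The labels also give a code to each array: replicates 1 and 2 are R2 and R4 in Ruantiaohongmei, X1 and X3 in Xiyeqing, M1 and M2 in Manao, and Z1 and Z2 in Zhenkui. What the numbers in these codes stand for is not said, so a difference between replicates cannot be told apart from a difference between the extracts or stages they may mark. Ruantiaohongmei and Manao lay in slide row 1 and Xiyeqing and Zhenkui in slide row 2, so within a row species and cultivar cannot be told apart, while the species contrast over both rows is balanced for row.

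The number of probes well above background ran from 7806 (Ruantiaohongmei replicate 2) to 8982 per array, and 0 probes were saturated. Across probes, r was 0.969 to 0.992 within cultivars, 0.965 to 0.987 between cultivars of one species and 0.878 to 0.927 between species. Levels are log2 signals relative to the 75th percentile of each array, so a level of 0 is that percentile, and no probe's level is set against another's. Of 20 described probes for fruit flesh genes (expansins, ACC oxidases and polygalacturonases), 14 were well above background on all arrays.

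The values that chose the members were the authors' 2-fold lists, which covered the species comparison and all 6 cultivar pairs. Each member stood in 3 to 5 of the 7 lists. All 6 members were in the list of Manao against Ruantiaohongmei, and 0 were in the list of Manao against Zhenkui. The smallest listed ratio of a member in the authors' deposited table was 2.12-fold (EF568783.1, Manao against Xiyeqing), and just outside lay EU439430.1 in the same pair at 1.98-fold in the authors' deposited log2 values. In the authors' deposited log2 values AY541607.1 differed 2.18-fold between species and was not listed, so the lists were not set by 2-fold on these values alone. Species and cultivar differences of the members are therefore given as descriptions. Where calls of the fit over all probes are named, they stand beside the share of all probes called and support nothing about the members.

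Of the 6 probes, 3 had the fruit of one species wholly above that of the other, as did 39.9% of the 9121 tested probes. The members were selected on this contrast, so nothing is read from their share. The almond LOX AJ418043.2 and the apricot ADH EU395433.1 were 2.74-fold and 2.91-fold higher in P. mume, and the almond ADH EF640714.1 was 2.83-fold higher in P. armeniaca. The other 3 probes, all LOX, were high on replicate 2 of both P. mume cultivars and not well above background on replicate 1 of both.

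**Figure D1:**
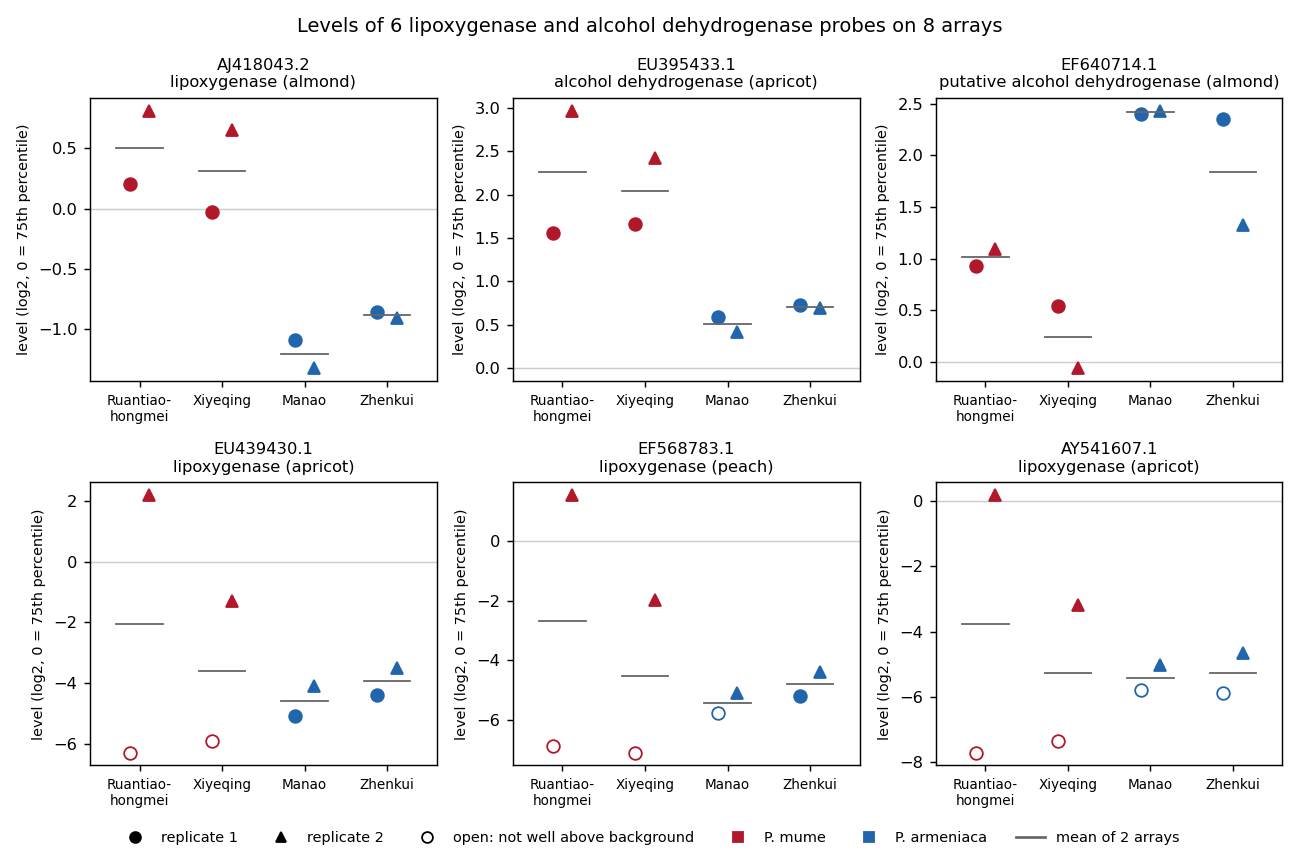
Level of each probe (vertical axis, log2 relative to the 75th percentile of the array) on the 8 arrays, by cultivar. Circles are replicate 1, triangles replicate 2, bars the mean of 2 arrays, and open symbols spots not well above background. The upper 3 probes separate the species, and the lower 3 peak on Ruantiaohongmei replicate 2.

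The lipoxygenase AJ418043.2, an almond entry, stood in P. mume at 0.20 and 0.81 on the Ruantiaohongmei arrays and at -0.03 and 0.65 on the Xiyeqing arrays. In P. armeniaca it stood at -1.09 and -1.32 in Manao and at -0.86 and -0.91 in Zhenkui. All 4 P. mume arrays lay above all 4 P. armeniaca arrays, and the probe was well above background on every array. The mean was 0.41 ± 0.39 (SD, n = 4) over P. mume arrays and -1.05 ± 0.20 over P. armeniaca arrays, which differ by 1.45 ± 0.23 (SE) on the log2 scale. In processed signal, the geometric means were 624 and 267 units. Fewer LOX-expressing cells and less RNA per cell cannot be told apart in fruit RNA, and the labels do not name the fruit parts used.

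The order of the cultivars for AJ418043.2 was Ruantiaohongmei (0.50), Xiyeqing (0.31), Zhenkui (-0.89) and Manao (-1.20). The P. mume cultivars overlapped, with a difference of 0.19 ± 0.31 (SE), while Manao lay under Zhenkui by 0.32 ± 0.31 with arrays that did not overlap. In slide row 1 Ruantiaohongmei exceeded Manao by 1.71 ± 0.31, and in row 2 Xiyeqing exceeded Zhenkui by 1.20 ± 0.31. Both rows of the slide had the same direction, which follows from species arrays that did not overlap.

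The alcohol dehydrogenase EU395433.1, from the apricot cultivar Modesto, followed the same order. It stood at 1.56 and 2.97 in Ruantiaohongmei and at 1.66 and 2.42 in Xiyeqing, against 0.59 and 0.42 in Manao and 0.73 and 0.69 in Zhenkui. The P. mume arrays lay above every P. armeniaca array, and replicate 2 exceeded replicate 1 in both P. mume cultivars. The means were 2.15 ± 0.67 (SD, n = 4) and 0.61 ± 0.14, a difference of 1.54 ± 0.32 (SE). The spread within P. armeniaca was smaller than that within P. mume. The difference was 1.76 ± 0.46 in row 1 and 1.33 ± 0.46 in row 2. Between cultivars of one species it was 0.23 ± 0.46 (Ruantiaohongmei over Xiyeqing) and -0.21 ± 0.46 (Manao over Zhenkui).

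The second ADH probe, the putative Adh-1 of almond EF640714.1, ran the other way. It stood at 0.93 and 1.09 in Ruantiaohongmei and at 0.54 and -0.06 in Xiyeqing. In P. armeniaca it stood at 2.40 and 2.43 in Manao and at 2.35 and 1.32 in Zhenkui. No array of one species reached into the other, and Zhenkui replicate 2 was the P. armeniaca array closest to P. mume. The means were 0.62 ± 0.51 (SD, n = 4) and 2.13 ± 0.54, a difference of -1.50 ± 0.34 (SE), with geometric mean signals of 726 and 2400 units. In row 1 it was -1.41 ± 0.37 and in row 2 -1.60 ± 0.37.

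The cultivar order of EF640714.1 was Manao (2.42), Zhenkui (1.84), Ruantiaohongmei (1.01) and Xiyeqing (0.24), and no neighbours in it overlapped. Within species the differences were 0.77 ± 0.37 (SE) for Ruantiaohongmei over Xiyeqing and 0.58 ± 0.37 for Manao over Zhenkui. The 2 ADH probes therefore ranked the species in opposite order. Their correlation over the 8 arrays was r = -0.761 (rho = -0.833), given as a description, since both share the species split.

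The remaining 3 LOX probes had the same profile as each other. EU439430.1, a partial LOX entry of the apricot cultivar Modesto, stood at -6.28 and 2.18 in Ruantiaohongmei and at -5.89 and -1.31 in Xiyeqing, against -5.09 and -4.08 in Manao and -4.38 and -3.50 in Zhenkui. EF568783.1, the complete peach LOX entry, stood at -6.85 and 1.52 in Ruantiaohongmei, -7.08 and -1.99 in Xiyeqing, -5.77 and -5.08 in Manao and -5.20 and -4.38 in Zhenkui. AY541607.1, another partial apricot entry, stood at -7.71 and 0.18, -7.35 and -3.17, -5.79 and -5.03, and -5.89 and -4.65 in the same order of cultivars. On each of the 3 probes Ruantiaohongmei replicate 2 was highest and Xiyeqing replicate 2 second, and replicate 1 of both cultivars was not well above background. Manao replicate 1 was not either for EF568783.1, nor were Manao and Zhenkui replicate 1 for AY541607.1, and such spots have no order among themselves.

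Against the dimmest signal called well above background on the replicate 1 array, Ruantiaohongmei replicate 2 was at least 192-fold higher for EU439430.1, at least 122-fold for EF568783.1 and at least 48.1-fold for AY541607.1. On the Xiyeqing arrays the bounds were 22-fold, 13.7-fold and 6.04-fold for the same probes. In processed signal EU439430.1 read 2037 units on Ruantiaohongmei replicate 2 and 186.5 on Xiyeqing replicate 2, and 18.91 to 36.77 on the P. armeniaca arrays. The spots were therefore bright on 1 array, moderate on another and close to background elsewhere.

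In P. armeniaca replicate 2 also read higher than replicate 1 for these probes. Where both arrays of a cultivar were well above background, it did so by far less than in P. mume. The difference there was 1.00 in Manao and 0.88 in Zhenkui for EU439430.1, and 0.82 in Zhenkui for EF568783.1. Replicate 1 was not well above background for EF568783.1 in Manao or for AY541607.1 in either cultivar, so those differences have no firm size. The replicate arrays of a cultivar differed by a median of 0.18 to 0.34 in absolute log2 over the 9121 tested probes, and 88.7% of probes differed by less than 1 in Ruantiaohongmei and 91.6% in Xiyeqing. Against these spreads, the lower bounds of the P. mume replicate differences in log2 were 7.58, 6.93 and 5.59 in Ruantiaohongmei and 4.46, 3.78 and 2.60 in Xiyeqing, for EU439430.1, EF568783.1 and AY541607.1. AY541607.1 was not among the tested probes, since it was never well above background on both arrays of a cultivar.

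**Figure D2:**
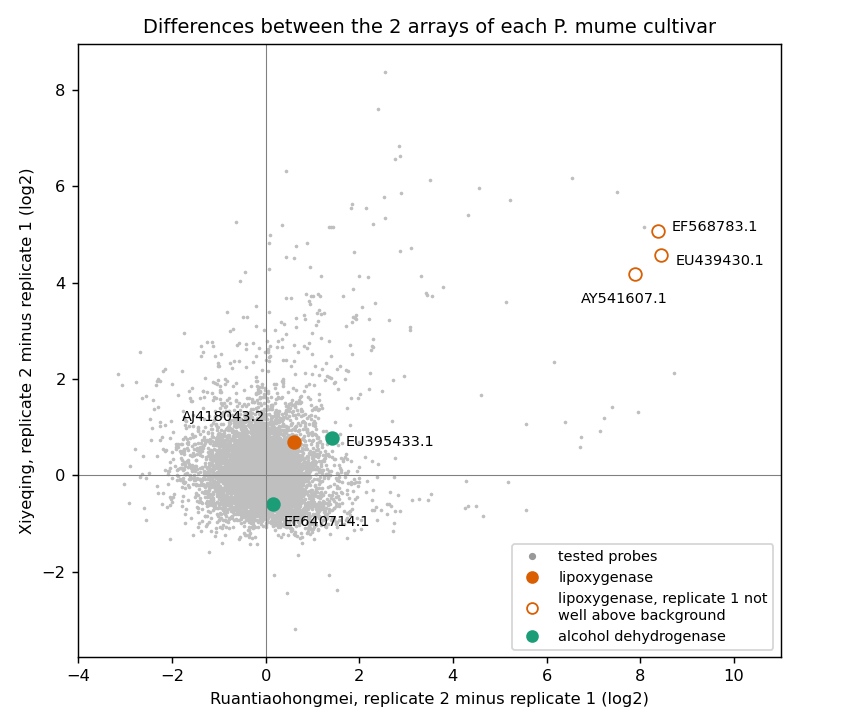
Replicate 2 minus replicate 1 (log2, as scaled) in Ruantiaohongmei (horizontal) and in Xiyeqing (vertical) for the 9121 tested probes (grey) and the members. The LOX probes EU439430.1, EF568783.1 and AY541607.1 (open circles) lie far up on both axes, but their replicate 1 spots were not well above background, so the bounds in the text and not these positions hold. The other 3 members lie within 1.41 of 0 on both.

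The means of the 3 probes hid this spread. EU439430.1 averaged -2.82 ± 4.03 (SD, n = 4) over P. mume arrays and -4.26 ± 0.66 over P. armeniaca arrays, 1.44 ± 1.77 (SE) apart. EF568783.1 averaged -3.60 ± 4.14 and -5.11 ± 0.57, a difference of 1.51 ± 1.81, and AY541607.1 averaged -4.51 ± 3.74 and -5.34 ± 0.60. These means take undetected spots at their read signal, so their differences have no firm size. The standard errors exceeded both tested differences, and the species overlapped.

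Over replicate 2 arrays alone, every spot of the 3 probes was well above background. P. mume minus P. armeniaca was there 4.22 for EU439430.1, 4.49 for EF568783.1 and 3.34 for AY541607.1. Replicate 2 is where these probes are high in P. mume, so those differences follow from the choice of arrays. Over replicate 1 arrays 2 of 4 spots of EU439430.1, 3 of 4 of EF568783.1 and 4 of 4 of AY541607.1 were not well above background. No difference is given for them. For EU439430.1 the order on replicate 1 was the reverse. Both P. armeniaca spots were well above background (-5.09 and -4.38) and neither P. mume spot was. The lowest levels so called on those P. mume arrays were -5.41 and -5.77. The other LOX, AJ418043.2, was higher in P. mume over replicate 1 and over replicate 2 arrays, by 1.06 and 1.84, as was EU395433.1, by 0.95 and 2.14, and EF640714.1 was lower on both, at -1.64 and -1.37. The species arrays did not overlap for these members, so their direction in either subset was fixed and is no added support. The replicate number comes from the labels and is not said to mark a shared stage, day or batch.

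**Figure D3:**
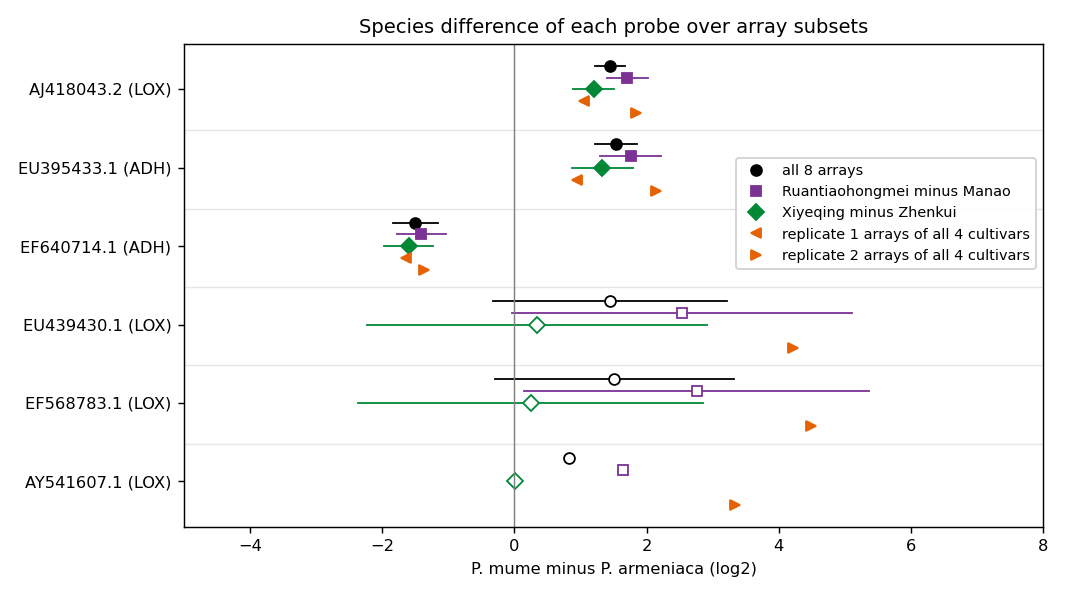
P. mume minus P. armeniaca (log2, horizontal axis) for each probe over all 8 arrays, within each slide row (bars are 1 SE of the fit) and over the replicate 1 or replicate 2 arrays of all cultivars. AJ418043.2 and EU395433.1 stay above 0 and EF640714.1 below it, which follows from species arrays that did not overlap. Open symbols include spots not well above background, and subsets by replicate number are left out where any spot was not.

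The 3 LOX probes correlated at r = 0.988 to 0.998 (rho = 0.952 to 0.976) over the 8 arrays. AJ418043.2 correlated with them at r = 0.443 to 0.553 (rho = 0.238 to 0.310) and with the ADH EU395433.1 at r = 0.976 (rho = 0.976). These correlations rest on 8 arrays that share the species split and 2 outlying arrays, take undetected spots at their read signal, and are descriptions. Probe sequences were not used here, so whether the 3 LOX probes read 1 transcript or several was not tested, and they are not counted as independent.

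Over the whole table, limma called 3348 of 9121 probes between species at a Benjamini-Hochberg adjusted p under 0.05, or 36.7%. Of the 5 members tested, 3 were called: AJ418043.2 and EU395433.1 higher in P. mume (15.1% of all tested probes were) and EF640714.1 lower (21.6%). The species arrays did not overlap for the same 3 members, against 39.9% of all tested probes, 16.3% with P. mume higher and 23.6% with it lower. The members were selected on this contrast, so nothing is read from their share. The median difference of the 5 tested members was 1.45, where that of all tested probes was -0.11, and it was -0.29 without Ruantiaohongmei replicate 2 and 0.82 without Xiyeqing replicate 2; 2 of the 5 values behind it rest partly on undetected spots. Without both arrays AJ418043.2 (1.13) and EU395433.1 (1.00) were still called higher and EF640714.1 (-1.39) was no longer called. The other tested LOX probes then had no P. mume spot well above background, and no call of theirs is counted.

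Within slide rows, limma called 3 of the 5 tested members for Ruantiaohongmei over Manao (21.6% of all tested probes) and 2 for Xiyeqing over Zhenkui (27.8%). In row 1 these were the same members as between species, and in row 2 EU395433.1 was not called at 1.33 ± 0.46 (SE). The arrays did not overlap for 3 of 6 members in row 1 (68.4% of tested probes) and in row 2 (65.7%). Between the P. mume cultivars 0 of the 5 members were called, with 0.592% of all probes called, and the arrays did not overlap for 1 of 6 members (30.3% of tested probes). Between the P. armeniaca cultivars limma called 0 members and 0 of all probes (0%), although 1022 probes had an unadjusted p under 0.05, and 3 of 6 members did not overlap (52.1%). For the difference between the row contrasts, 0 of 5 members were called (0.197% of all probes). Its value was 0.51 ± 0.44 (SE) for AJ418043.2, 0.43 ± 0.65 for EU395433.1 and 0.19 ± 0.52 for EF640714.1, and 2.19 ± 3.64 for EU439430.1, where the SE exceeded the value.

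Among 227 other tested probes whose description names a gene product, those most like AJ418043.2 over the 8 arrays were EIL1 of peach (EF031065.1, r = 0.981), thioredoxin H (AF323593.1, r = 0.963) and a glycine-rich protein (EF640670.1, r = 0.959). EIL1 belongs to the EIN3-like transcription factors of ethylene signalling. Its level was 2.57 to 3.17 in P. mume and 1.72 to 1.89 in P. armeniaca. EIL1 was also among those nearest to the ADH EU395433.1 (r = 0.958), with a class I small heat shock protein (GQ850381.1, r = 0.961) and the ACC oxidase PAO1 (X77232.1, r = 0.957), which makes ethylene. PAO1 stood at -3.06 to -0.76 in P. mume and at -3.96 to -3.43 in P. armeniaca. It was 3.93-fold higher on replicate 2 than on replicate 1 of Ruantiaohongmei and 3.03-fold in Xiyeqing. All 227 probes have their descriptions from the authors' 2-fold lists, and the probes named here share the species split with the members. High correlations are therefore partly set by that choice, and no link between these genes is read from them.

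Those most like EF640714.1 were phospholipase D alpha (EU117127.1, r = 0.950), which cleaves membrane phospholipids, and the dehydrins DQ061115.1 (r = 0.924) and U34809.1 (r = 0.910), proteins of water stress. Phospholipase D alpha ranged from 2.75 to 3.17 in P. mume and from 3.56 to 4.14 in P. armeniaca. The 3 probes share with EF640714.1 a higher level in every P. armeniaca array, so these correlations also hold the species split.

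The probes most like the 3 replicate-dependent LOX probes were ACC synthases, an endo-polygalacturonase and a class IV chitinase. ACC synthase makes the precursor of ethylene, and endo-polygalacturonase cuts pectin as fruit softens. The ACC synthase ACS4 (EU034653.1, r = 0.935 to 0.950) stood at -4.36 and 3.04 in Ruantiaohongmei, -3.04 and -1.62 in Xiyeqing, -3.34 and -2.73 in Manao, and -2.35 and -2.68 in Zhenkui. Ruantiaohongmei replicate 2 was 168-fold above replicate 1 and Xiyeqing replicate 2 was 2.68-fold above its own. The chitinase EF640689.1 (r = 0.943 and 0.950 with EU439430.1 and EF568783.1) was 271-fold and 35.7-fold higher on the same arrays, and the endo-polygalacturonase DQ340809.1 (r = 0.947 with both) was 71.3-fold and 5.08-fold higher. These probes had the same 2 arrays on top, and replicate differences that were larger in Ruantiaohongmei. They were picked as the most correlated with the LOX probes over the same arrays. The shared top arrays therefore follow from the choice, and nothing more is read from them.

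Another 5 endo-polygalacturonase probes were well above background on Ruantiaohongmei replicate 2 and Xiyeqing replicate 2 and on none of the other arrays. DQ340810.1 stood at 5.96 and 0.58 there, with lower bounds of 2650-fold and 81.8-fold over replicate 1 of the same cultivar. All 20 fruit flesh probes were well above background on these 2 arrays, against 14 or 15 on the other 6. The list did not move as one. All 4 ACC oxidase probes were higher on replicate 2 than on replicate 1 in both P. mume cultivars. Of 10 expansin probes, wall-loosening proteins of growing fruit, 3 were higher in both, 6 were lower in both (-0.92 to -0.10) and 1 was mixed. Whether probes of 1 kind read 1 transcript or several was not tested, and they are not counted as independent. No share of all tested probes stands beside these counts, so nothing about a kind of gene is read from them. The summed linear signal of the list, relative to the 75th percentile, was 262 and 630 in Ruantiaohongmei and 174 and 344 in Xiyeqing. It was 512 and 388 in Manao and 567 and 191 in Zhenkui. The brightest probes weigh most in such a sum. The single seed marker, an oleosin (AY962832.1), stood at 1.31 on Ruantiaohongmei replicate 2, 105-fold above replicate 1, but at -4.90 on Xiyeqing replicate 2, 1.5-fold above its replicate 1. On the same linear scale its signal was 2.47 on Ruantiaohongmei replicate 2 and 0.0142 to 0.0336 on the other arrays. All 3 green tissue markers were well above background on every array, and their summed linear signal was 76.4 to 144 in P. mume and 144 to 306 in P. armeniaca. The 3 did not run in 1 direction. P. mume minus P. armeniaca in log2 was -1.01 for a photosystem I subunit and -0.91 for a chlorophyll A/B binding protein. It was 0.92 for a putative photosystem I assembly protein. The part that these tissue markers, or the lower number of probes above background on Ruantiaohongmei replicate 2, have in the LOX values was not tested.

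**Figure D4:**
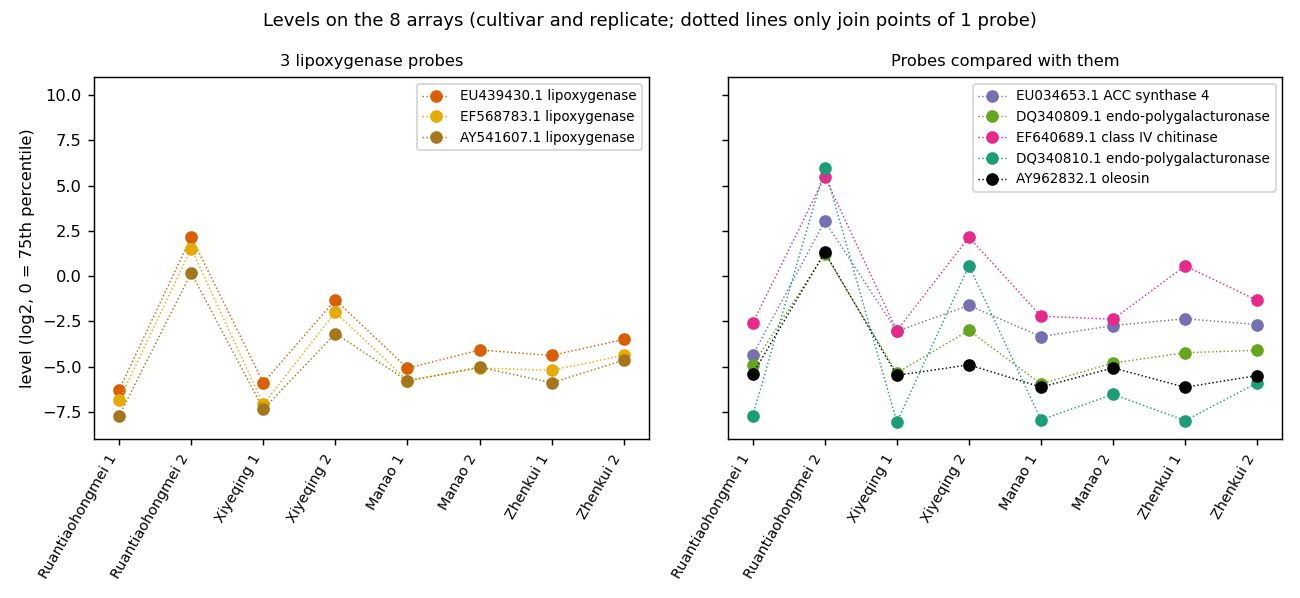
Levels (log2 relative to the 75th percentile) of the 3 LOX probes (left) and of ACC synthase 4, endo-polygalacturonase, class IV chitinase and oleosin probes (right) on the 8 arrays, named by cultivar and replicate. All of them are highest on Ruantiaohongmei replicate 2, and oleosin stays near -4.90 on Xiyeqing replicate 2, where the others rise.

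Other genes around the LOX and ADH steps were taken from word patterns over the descriptions. All 4 described probes for fatty acid supply and breakdown were called lower in P. mume, where 21.6% of all tested probes were. They were phospholipase D alpha (-0.85 ± 0.19 SE), a chloroplast omega-3 desaturase (AF517831.2, -1.36 ± 0.47), which makes linolenic acid, enoyl-CoA hydratase of beta-oxidation (U93271.1), and phytoene desaturase (AY822065.1, -1.14 ± 0.19), an enzyme of carotenoid synthesis that the pattern also matched. Enoyl-CoA hydratase was well above background on the 4 P. armeniaca arrays and on none of P. mume, so it entered the test only through the group where it is high. These probes too had been selected on this contrast, and nothing is read from their share.

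Of the enzymes that share substrates with the members, 1 was called higher and 1 lower in P. mume, where 15.1% and 21.6% of all tested probes were. Their descriptions too come from the authors' 2-fold lists, so nothing is read from their share or direction. Pyruvate decarboxylase (EU395434.1), which makes acetaldehyde for ADH, stood at 6.11 ± 0.49 (SD, n = 4) against 5.02 ± 0.51, a difference of 1.09 ± 0.32 (SE) in the direction of the ADH EU395433.1 and opposite to the ADH EF640714.1 (-1.50). Allene oxide synthase (AJ633680.1), which takes LOX products towards jasmonic acid, stood at 2.14 ± 0.70 against 3.77 ± 0.35, a difference of -1.64 ± 0.36, opposite to the LOX AJ418043.2. Pyruvate decarboxylase was 1.15 higher on replicate 2 than on replicate 1 in Ruantiaohongmei and 0.03 lower in Xiyeqing (-0.03). No described probe matched the patterns for terpenoid or apocarotenoid volatiles or for cinnamyl alcohol dehydrogenase (0 of 658 for each).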

How the data were processed

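Fruit RNA was measured on 8 one-colour Agilent arrays. The deposited scanner files hold intensity values, background-subtracted and detrended by Agilent Feature Extraction 10.7.1.1 per the file headers (8.1 per the submitters' processing notes). The authors also deposited log2 values per array and comparison lists with a ratio (fold) and unadjusted p-value per probe; how they were normalized is not stated in the sources used. The processed signal was put on the log2 scale and the 75th percentile of that array's non-control probes subtracted. Control spots and marked outlier spots (0 to 2 per array) were left out, and spots of a probe were averaged. The 9121 probes that both arrays of some cultivar (1 or more) measured well above background entered limma (version 3.58.1, under R 4.3.3). Cultivar was a random block in the species fit (consensus correlation 0.078), and cultivar pairs were contrasts in 1 fit of 4 means. At so low a correlation the arrays of a cultivar count as nearly independent. The species fit rests on few cultivars of each species, and its SEs may be too small if replicates are technical. The fits were tested on simulated data. A call is a Benjamini-Hochberg adjusted p under 0.05.

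The normexp alternative (offset 50) used spot medians and local background medians, since the files hold no spot means. All members are named; the most similar genes are the 3 highest correlations with each member. An "at least" fold compares a signal with the higher of the probe's own signal and the lowest one well above background on the dim array. The members and lists were chosen with earlier results of these data known. The number of arrays limits the precision.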

Additional observations from a re-analysis of the deposited data

Results flagged for a closer look

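The putative ADH EF640714.1 had 1 P. armeniaca array far from the others: Zhenkui replicate 2 stood at 1.32, against 2.35 on Zhenkui replicate 1 and 2.40 and 2.43 on the Manao arrays. The gap to the nearest array was 0.924 of the range of the 4 arrays, above Dixon's critical value for a group of that size. Chance passes that value in about 1 group in 20, and 12 groups of 4 arrays (6 members in each species) were examined, of which 1 passed.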

How the results depend on the processing

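Of 5 members tested between species, 3 were called. The number called was also 3 under normexp background correction, quantile normalization, the authors' deposited values and both other filters. It was 3 too with trend and robust options, slide row as a block and no block, and without any 1 array. The number of members tested was 3 with only probes well above background on all arrays, 6 with no filter and 5 or 6 without 1 array. Their median difference of 1.45 was 1.44 to 1.56 under those settings with all arrays; leaving out 1 array gave -0.29 to 1.94, and it turned to -0.29 without Ruantiaohongmei replicate 2 and was 0.82 without Xiyeqing replicate 2. Without both, an alternative chosen after seeing the data, it was -1.39, and EF568783.1 and EU439430.1 read -1.86 and -1.82 (-0.20 to 2.67 and -0.23 to 2.59 without 1 array). Leaving out the arrays where these LOX probes are high fixes that turn, and their remaining P. mume spots were not well above background, so nothing is read from it. Without both, 1848 probes in place of 3348 were called between species; fewer arrays entered that fit. Leaving out 1 array gave 2545 to 4181 calls between species, 560 to 2096 for Ruantiaohongmei over Manao (main 1970; 560 and 693 without Manao replicate 1 and 2), and 1277 to 2677 for Xiyeqing over Zhenkui (main 2540). The latter was 1277 without Xiyeqing replicate 2, 1290 and 1413 without Zhenkui replicate 1 and 2, and 1618 and 1627 without Manao replicate 1 and 2. It also gave 23 to 57 for Ruantiaohongmei over Xiyeqing (main 54), 10 to 23 for the difference between the row contrasts (main 18) and 0 for Manao over Zhenkui. The 54 calls became 28 with normexp and 9 with probes kept only if every array measured them well above background, and the 18 became 11 and 5. With normexp the calls for Ruantiaohongmei over Manao split into 916 higher and 823 lower (main 794 and 1176). The replicate number as a replicate block gave 3091 calls between species, 1995 and 2485 within rows 1 and 2, 47 and 0 within species and 15 for the row contrasts, with 3 members called and a median of 1.45, and changed no member's call between species. The labels do not say whether the replicate numbers pair the samples. Replicate differences over all tested probes correlated at r = -0.18 to 0.39 between cultivars, highest for Manao and Zhenkui. Such correlations cannot show whether a number marks a shared stage or batch. For 3 LOX probes the signal on replicate 1 of both P. mume cultivars was not well above background, so differences that use those spots have no firm size.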
